A study of Oryza sativa with 16 samples.

Results

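The probe sets described here were high in early and low in late rice seed. They were chosen from seed of Zhonghua 11 (ZH), a japonica cultivar, that had received no low temperature. A probe set was kept when its lowest log2(signal + 16) on the 4 arrays of 4 and 6 days after fertilization (DAF) was at least 1 above its highest on the 4 arrays of 10 and 12 DAF. The distance between these values is called the gap, and a gap of 1 is 2-fold. This gave 144 members of 57194 probe sets on the Affymetrix rice genome array, the 187 control probe sets being left out. With the same gap in the other direction, 357 probe sets were higher in late seed.

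The arrays measured RNA of whole seeds in 8 conditions with 2 arrays each, 16 in all, and the plants grew with days of 28°C and nights of 22°C. HF 4D-2DC seed came from plants of the japonica cultivar Hanfeng (HF) moved to 14°C for 2 days at 4 DAF, and HF 4D seed was taken at 4 DAF without cold. ZH 10D-2DC and ZH 4D-2DC seed came from ZH plants that spent 2 days at 14°C from 10 or from 4 DAF. Untreated ZH seed was taken at 4, 6, 10 and 12 DAF and is called ZH 4D, ZH 6D and so on. HF is described by the study as cold-resistant and ZH as cold-sensitive. No array of HF seed at 6 DAF without cold and none of late HF seed was analysed here, so cold and 2 days of age cannot be told apart in HF.

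In the first days after fertilization the cereal endosperm passes from free nuclear divisions to cell formation and a phase of cell division, while the embryo sets up its axis and its outer cell layer. Later, cell number is largely set, and the endosperm cells take up starch and storage protein while the embryo matures. Genes of DNA replication and of the mitotic cyclins are known for their use in dividing cells, and their RNA is usually scarce in tissue that has stopped dividing.

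The choice of members used the 8 untreated ZH arrays, so that values there are a description and were not tested. Tests were made only among the other 8 arrays, those of HF 4D-2DC, HF 4D, ZH 10D-2DC and ZH 4D-2DC seed. The labels call the replicates biological, but do not say which plants they came from. P-values rest on the spread between the 2 arrays per condition. The main fit did not pair arrays by replicate number, so this spread includes any shift between replicate 1 and replicate 2. Every array had a trimmed mean signal of 500, yet its middle probe set had 85.9 to 172 in replicate 1, against 49.8 to 60.1 in replicate 2 (8 arrays each). Replicate 1 of HF 4D stood apart from the other arrays of replicate 1. The summed signal of 6 MADS-box genes of other flower parts was 57427 there and 5670 to 7581 on the other 7 arrays of replicate 1, against 24366 to 48776 on the arrays of replicate 2. Its summed signal of 6 starchy endosperm genes was 31847, and that of ZH 4D replicate 2 was 22250.0, where the other 14 arrays had 106770 to 848460. Among these genes is Waxy, the granule-bound starch synthase of the endosperm, and they mark the labelled tissue.

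The 144 members lay high in early seed of both cultivars and low in late ZH seed. In untreated ZH seed the choice of members had set these levels. Their median signal was 1309 and 1128 on the HF 4D-2DC arrays and 1664 and 1559 on the HF 4D arrays. It was 196 and 225 on the ZH 10D-2DC arrays, against 1651 and 1376 on the ZH 4D-2DC arrays. In untreated ZH seed it was 2019 and 2135 at 4 DAF, 1515 and 1447 at 6 DAF, 270.3 and 261 at 10 DAF and 204 and 159 at 12 DAF. On the arrays that did not choose the members, the medians thus lay between 1128 and 1664 in early seed and at 196 and 225 in late seed. Untreated ZH arrays of early and late seed were bound to lie apart, and late HF seed was not measured here. Fewer cells of a type and less RNA per cell cannot be told apart in such whole-seed values.

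**Figure D1:**
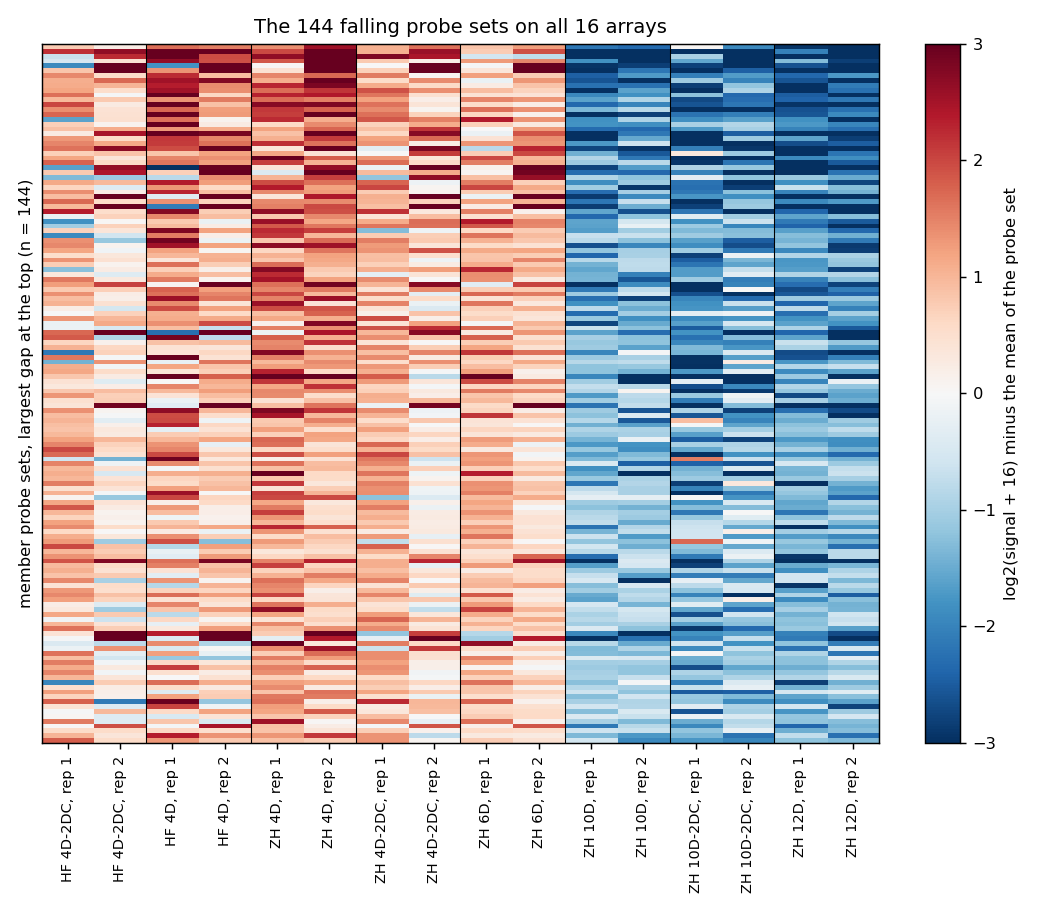
Each row is 1 of the 144 members, with the largest gap at the top, and each column 1 of the 16 arrays. Colour gives log2(signal + 16) minus the mean of the row, red above and blue below it, cut off at 3. The 4 arrays of HF seed and the 2 of ZH 4D-2DC seed are mostly red, and the 2 of ZH 10D-2DC seed mostly blue.

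The largest gap was 3.02 and the median gap 1.32, and 18 members had a gap of over 2. The largest gap belonged to LOC4324641, and among members with a gene it was followed by LOC4343713 with 2.65, LOC4352823 with 2.46, LOC4343208 with 2.35 and LOC4349136 with 2.28. The annotation gives these genes a locus number and no name. Just inside the threshold lay LOC4344265 with 1.02, LOC4328363 with 1.01 and LOC4348824, the smallest gap of all. Just outside it lay LOC9267154 with 0.998, OsAffx.13311.1.S1_s_at with 0.997 and LOC4333677 with 0.988.

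The annotation paired 91 of the 144 members (63.2%) with 1 gene, 88 genes in all, against 39.2% of all probe sets tested. The other 53 had no gene. A name other than a locus number was found for 12 members, or 11 genes. They were PCNA, MCM4, RPA32A, CYCB2-2, OsTF1, PRMT10, SDH2-1 with 2 probe sets, HATB, OsTPP3, OPR5 and OEP21. Probe sets with the suffix s_at, which the array's maker uses for probes shared by several transcripts, made up 11.1% of the members and 4.92% of all probe sets. The suffixes x_at and a_at went the other way, with 8.33% and 1.39% of the members, against 12.5% and 2.46% of all probe sets. Some members may share transcripts, and 7 design clusters held more than 1 member, led by Os.10246 with 4 and Os.12348 with 3. Members are thus not independent of each other. In the order of genes on the chromosomes, LOC4339550 and LOC4339552 lay 2 genes apart and LOC4339169 and LOC4339174 5 genes apart.

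To place each condition, every member was put on a scale on which the mean of ZH 10D and ZH 12D is 0 and the mean of ZH 4D and ZH 6D is 1. The median place was 0.875 in HF 4D-2DC seed and 0.981 in HF 4D seed. It was 0.0316 in ZH 10D-2DC seed, against 0.908 in ZH 4D-2DC seed. ZH 4D-2DC seed thus lay beside untreated ZH seed of the same age, since ZH 6D had 0.925, and ZH 10D-2DC seed lay between ZH 10D with 0.0736 and ZH 12D with -0.0736.

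The middle of the gap gives a count of the same pattern. Both arrays lay above it in 105 members for HF 4D-2DC, in 111 for HF 4D, in 2 for ZH 10D-2DC and in 108 for ZH 4D-2DC. Both lay below it in 9 members for HF 4D-2DC, in 2 for HF 4D, in 124 for ZH 10D-2DC and in 2 for ZH 4D-2DC. The remaining members of each condition had 1 array on each side. Replicate 2 of both early cold conditions lay lower than replicate 1. At or above the lowest early untreated array were 104 members on HF 4D-2DC replicate 1 and 64 on replicate 2, and 109 on ZH 4D-2DC replicate 1 and 73 on replicate 2.

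**Figure D2:**
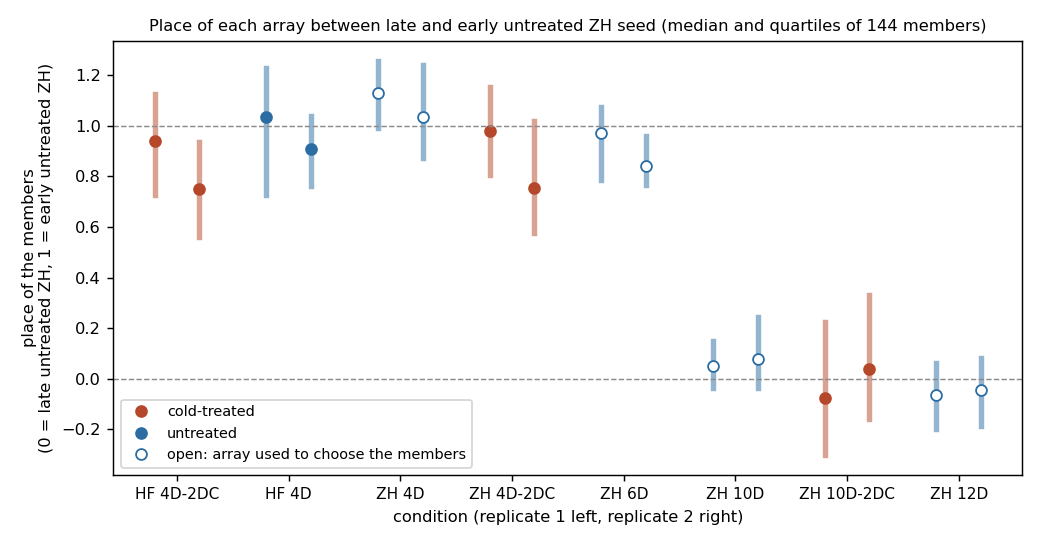
Points give the median and bars the quartiles of the place of the 144 members on each array, on a scale from late (0) to early (1) untreated ZH seed, with replicate 1 left of replicate 2. Open points are arrays that chose the members and so were bound to lie near 0 or 1. The filled points of HF 4D-2DC, HF 4D and ZH 4D-2DC lie between 0.751 and 1.03, and those of ZH 10D-2DC at -0.0752 and 0.0396.

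Late cold-treated seed was set against early cold-treated seed of the same cultivar to ask whether the members also differ between stages on arrays that did not choose them. In ZH 10D-2DC against ZH 4D-2DC seed, 92 of the 144 members (63.9%) were more than 2-fold lower with an unadjusted limma p below 0.05, which is the threshold the methods set for low temperature and is used for all calls here. Among all probe sets 1.19% were lower at this threshold and 2.28% were higher, and no member was higher. The median difference of the members was -2.36 on the log2 scale, a 5.14-fold lower signal, against 0.09 over all probe sets. It was -2.81 within replicate 1 and -1.97 within replicate 2, against 0.20 and 0.02 over all, and the standard error of a single member had a median of 0.881. Both ZH 10D-2DC arrays lay below both ZH 4D-2DC arrays in 137 members, which 13.5% of all probe sets showed, and by at least 1 in 92, which 1.73% of all showed. In no member were the ZH 10D-2DC arrays both above, as in 15.8% of all. After Benjamini-Hochberg adjustment over all probe sets no adjusted p was below 0.05, the lowest of a member being 0.351, and 92 members had an unadjusted limma p below 0.05. Leaving out ZH 4D-2DC replicate 1 gave 54 lower members and leaving out ZH 10D-2DC replicate 1 gave 58, and 32 of the 92 passed with each of the 8 arrays left out in turn.

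**Figure D3:**
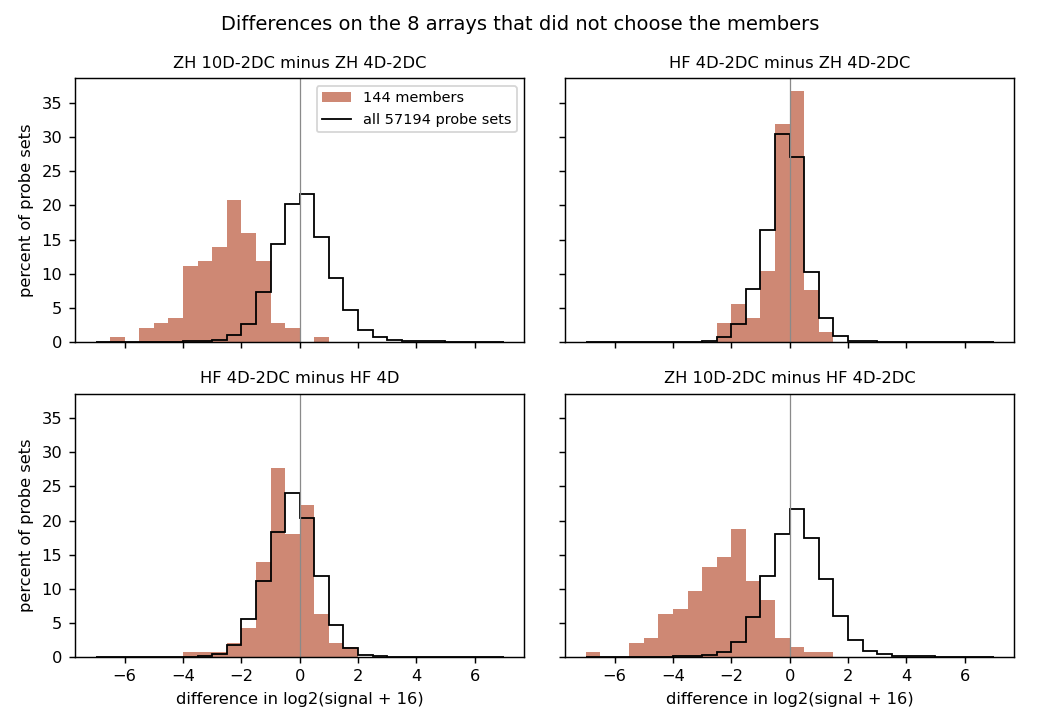
Bars show the 144 members and the black outline all 57194 probe sets, as percent per step of 0.5 in the difference of log2(signal + 16), for the 4 comparisons among arrays that did not choose the members. Against ZH 4D-2DC and against HF 4D-2DC the members of ZH 10D-2DC seed centre on -2.36 and -2.26. In HF 4D-2DC minus ZH 4D-2DC the members lie over all probe sets. In HF 4D-2DC minus HF 4D they have a median of -0.50, against -0.23 over all.

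DNA replication was represented by 3 members. PCNA, the sliding clamp that holds the polymerases on DNA, had signals of 4776 and 3070.1 in HF 4D-2DC seed and 9059 and 4739.5 in HF 4D seed. It had 616 and 949 in ZH 10D-2DC seed and 4660.1 and 3399 in ZH 4D-2DC seed. Untreated ZH seed had 9183 and 5986 at 4 DAF, 6223 and 4935 at 6 DAF, 1064 and 1664 at 10 DAF and 853 and 1256 at 12 DAF. All arrays of early seed, of both cultivars and with or without cold, lay above all arrays of late seed. The difference of ZH 10D-2DC from ZH 4D-2DC was -2.36 ± 0.80 (SE, 2 arrays each) and passed the threshold. That call was lost on leaving out replicate 1 of ZH 4D-2DC (-2.13) or of ZH 10D-2DC (-2.05).

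MCM4, a subunit of the replicative helicase, had 790.2 and 746 in HF 4D-2DC seed and 341 and 778 in HF 4D seed. Its signals were 89.0 and 89.8 in ZH 10D-2DC seed and 942 and 668 in ZH 4D-2DC seed, and 907 and 1269 at 4 DAF, 744 and 638 at 6 DAF, 260.4 and 126 at 10 DAF and 281 and 254 at 12 DAF in untreated ZH seed. Late cold-treated seed was here the lowest of all conditions, and HF 4D replicate 1 was the lowest early array. ZH 10D-2DC differed from ZH 4D-2DC by -2.94 ± 0.80 (SE, limma adjusted p = 0.892). RPA32A, a subunit of the protein that covers single-stranded DNA, had 3147 and 1688 in HF 4D-2DC seed and 1247 and 2393 in HF 4D seed, and 122 and 187 in ZH 10D-2DC seed and 2721 and 1347 in ZH 4D-2DC seed. In untreated ZH seed it had 1877 and 2625 at 4 DAF, 1578 and 1864 at 6 DAF, 737 and 420.0 at 10 DAF and 450.0 and 314 at 12 DAF. The arrays of ZH 10D-2DC seed were again below all others, and the difference from ZH 4D-2DC was -3.53 ± 0.83 (SE, limma adjusted p = 0.739). Both genes passed the threshold, also with each array left out in turn.

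CYCB2-2, a B-type cyclin of the G2 to M transition, was the only member among the cyclins and their kinases. Its signals were 1366 and 538 in HF 4D-2DC seed and 2931 and 1162 in HF 4D seed. They were 125 and 65.4 in ZH 10D-2DC seed and 1228 and 645 in ZH 4D-2DC seed, and 3283 and 2979.9 at 4 DAF, 752 and 675 at 6 DAF, 66.3 and 116 at 10 DAF and 208 and 54.0 at 12 DAF in untreated ZH seed. The signal was highest in ZH 4D seed, reached at most 1366 at 6 days of age with or without cold, and overlapped among the late conditions. The difference of ZH 10D-2DC from ZH 4D-2DC was -3.08 ± 0.88 (SE) and passed the threshold, also with each array left out.

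The rest of these lists moved the same way in part. The DNA replication list holds the 3 members above and was widened after the gene names had been seen. It is thus not independent of these data, and its counts are a description. Of the 36 probe sets (30 genes) listed for DNA replication, 8 were lower and 0 higher in ZH 10D-2DC than in ZH 4D-2DC seed, where 1.19% and 2.28% of all probe sets were, with a median of -1.23, against 0.09 over all. The 5 that were not members came from MCM2, MCM3, MCM5 and MCM7, subunits of the same helicase, and from OsRPA70b, with differences between -3.55 and -2.43. Their gap was below 1, so that they are not among the 144. FEN1A, the flap endonuclease of lagging-strand synthesis, was at -1.94 ± 0.88 (SE) with one probe set and at -0.40 ± 1.08 with the other and did not pass. The second list held 30 probe sets (23 genes) of cyclins, their kinases and the KRP inhibitors of these kinases. Of these, 4 were lower and 0 higher, against the same shares of all probe sets, with a median of -0.77. Besides both probe sets of CYCB2-2 the lower ones were CYCA2-1 with -3.03 and CYCB1-1 with -2.08. The other B1 cyclin listed, CYCB1-3, was at 0.33 ± 0.86 (SE) and did not pass. Neither list had a probe set past the threshold in HF 4D-2DC against ZH 4D-2DC or against HF 4D seed, and their medians lay between -0.43 and 0.26 there.

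**Figure D4:**
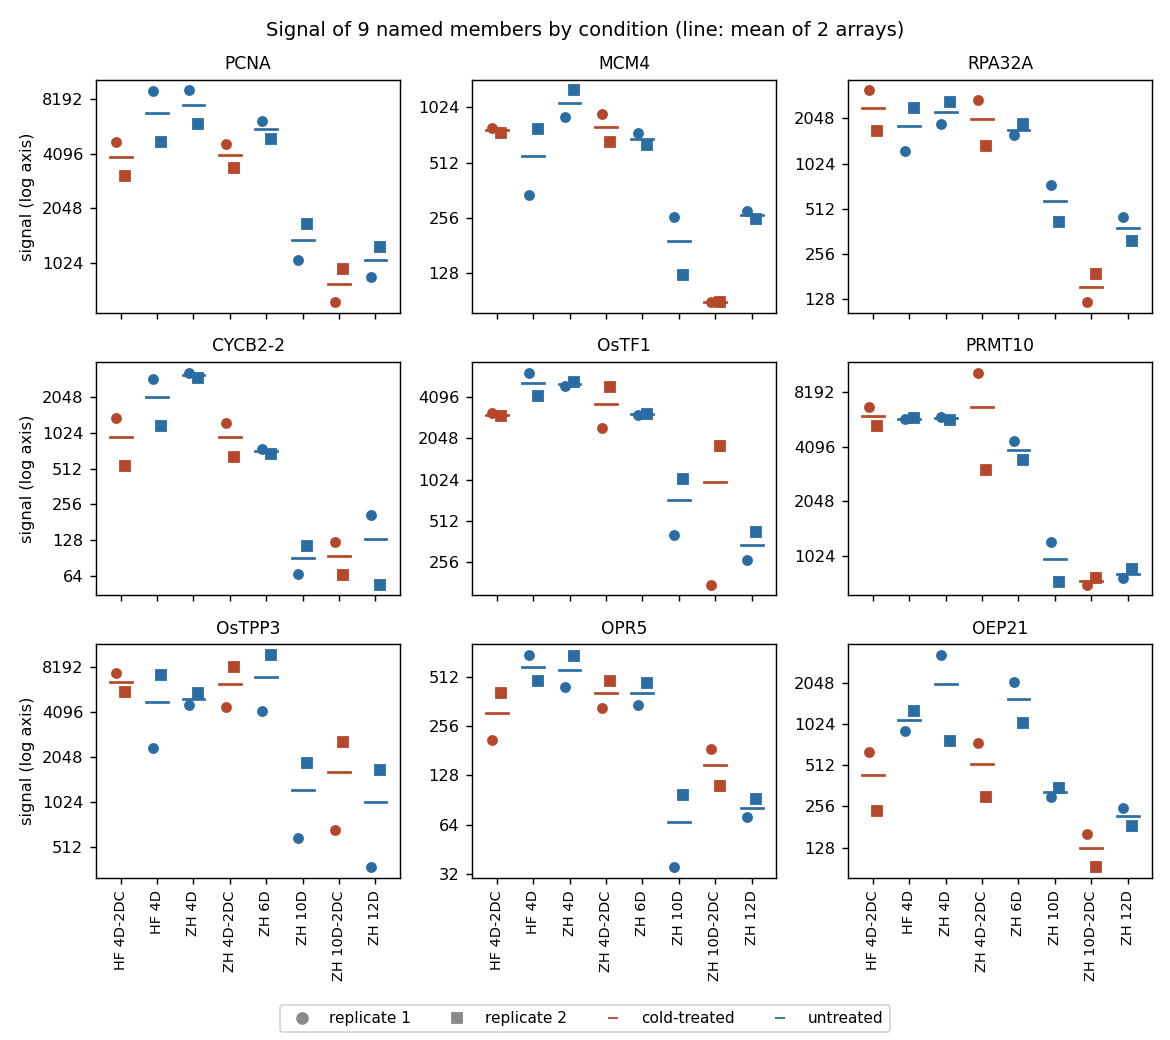
Signal (log axis) of 9 named members in the 8 conditions, circles for replicate 1 and squares for replicate 2, with a line at the mean of the 2 arrays, red for cold-treated and blue for untreated seed. In all 9 panels the 3 late ZH conditions on the right have lower means than the 5 early conditions on the left.

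Other named members belonged to RNA and protein regulation and to metabolism. OsTF1, a homeobox factor of the HD-GL2 class known from the outer cell layer of the rice embryo, had signals of 3119 and 2982 in HF 4D-2DC seed and 6177 and 4208 in HF 4D seed, and 175 and 1793 in ZH 10D-2DC seed and 2426 and 4844 in ZH 4D-2DC seed. In untreated ZH seed it had 4976 and 5304 at 4 DAF, 3051 and 3104 at 6 DAF, 400.3 and 1041 at 10 DAF and 264 and 421 at 12 DAF. Replicate 2 of ZH 10D-2DC was well above replicate 1, and its difference from ZH 4D-2DC of -2.55 ± 1.04 (SE) passed but became -0.93 without ZH 10D-2DC replicate 1 and lost its call, as it did without ZH 4D-2DC replicate 2 (-2.06). PRMT10, a protein arginine methyltransferase, had 6768 and 5327 in HF 4D-2DC seed and 5813 and 5885 in HF 4D seed, and 707 and 768 in ZH 10D-2DC seed and 10484 and 3031 in ZH 4D-2DC seed. Untreated ZH seed showed 5984 and 5739 at 4 DAF, 4374 and 3437 at 6 DAF, 1223 and 730.0 at 10 DAF and 766 and 861 at 12 DAF. The late arrays stayed close to each other and the early ones 3031 or above, and ZH 10D-2DC differed from ZH 4D-2DC by -2.91 ± 0.84 (SE), which passed, or by -2.02, not called, without ZH 4D-2DC replicate 1.

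OsTPP3, a trehalose-6-phosphate phosphatase, had 7525 and 5630.4 in HF 4D-2DC seed and 2358 and 7254 in HF 4D seed, and 672 and 2609 in ZH 10D-2DC seed and 4458 and 8185 in ZH 4D-2DC seed. In untreated ZH seed the signals were 4575 and 5481 at 4 DAF, 4208 and 9924 at 6 DAF, 588 and 1884 at 10 DAF and 377 and 1692 at 12 DAF. Replicate 2 was above replicate 1 in all late conditions, and its highest late array, ZH 10D-2DC replicate 2, exceeded its lowest early array, HF 4D replicate 1. Its difference of -2.17 ± 0.94 (SE) passed. It was -2.61, -1.74 and -1.21 without ZH 4D-2DC replicate 1, ZH 4D-2DC replicate 2 or ZH 10D-2DC replicate 1 and did not pass, nor did it without either HF 4D-2DC array, which enter only the estimate of the spread. The 2 probe sets of SDH2-1, the iron-sulfur subunit of succinate dehydrogenase, had gaps of 1.38 and 1.31. The annotation also lists rps14 among the names of this gene. The probe set with the larger gap had 117 and 879 in HF 4D-2DC seed and 285 and 1052 in HF 4D seed, and 28.9 and 401 in ZH 10D-2DC seed and 494 and 898 in ZH 4D-2DC seed. HF 4D-2DC replicate 1 thus lay below ZH 10D-2DC replicate 2, and the difference of ZH 10D-2DC from ZH 4D-2DC was -2.32 ± 1.24 (SE) and did not pass. For the other it was -2.23 ± 0.86 (SE), a call lost on leaving out either ZH 4D-2DC array (-2.20 and -2.27) or replicate 1 of ZH 10D-2DC (-1.36).

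The other named members, OPR5, OEP21 and HATB, did not pass in this comparison. OPR5, of the 12-oxophytodienoate reductase family, had 185 and 109 in ZH 10D-2DC seed and 328 and 482 in ZH 4D-2DC seed, with a difference of -1.38 ± 0.80 (SE). OEP21, a pore protein of the plastid outer envelope, had 162 and 92.1 in ZH 10D-2DC seed and 742 and 299 in ZH 4D-2DC seed, and HATB had 555 and 246 in ZH 10D-2DC seed and 2063 and 702 in ZH 4D-2DC seed. In all of them both ZH 10D-2DC arrays lay below both ZH 4D-2DC arrays, by -1.82 ± 0.87 for OEP21 and -1.66 ± 0.88 for HATB (SE). OEP21 was also low in early cold-treated seed, with 638 and 236 in HF 4D-2DC seed, against 915 and 1287 in HF 4D seed, 3301 and 769 in ZH 4D seed and 2109 and 1054 in ZH 6D seed. In this gene the early cold-treated arrays therefore overlapped the untreated arrays of 10 DAF, which had 300.4 and 350.2.

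The 10 genes with the largest gaps and only a locus number were each taken by their probe set with the largest gap. Of these, 9 were lower in ZH 10D-2DC than in ZH 4D-2DC seed at the same threshold, with differences from -5.01 to -2.30. LOC9272509 was at -1.82 and did not pass. LOC4339029, from the design cluster Os.12348, had 3745 and 3279.8 in HF 4D-2DC seed and 4856 and 5588 in HF 4D seed, and 277 and 373 in ZH 10D-2DC seed and 4345 and 2166 in ZH 4D-2DC seed. Untreated ZH seed gave 6076 and 5394 at 4 DAF, 5212 and 4715 at 6 DAF, 612 and 1003 at 10 DAF and 344 and 415 at 12 DAF. Early and late arrays did not overlap, and the difference was -3.19 ± 0.79 (SE, limma adjusted p = 0.756). The calls of LOC4339029, LOC4349136 and LOC4323993 passed with each array left out, and the other 6 were lost with at least 1 array. These were LOC4324641 (-1.30 on leaving out replicate 2 of ZH 10D-2DC, -2.01 on leaving out that of ZH 4D-2DC), LOC4343713 (-3.59 without ZH 10D-2DC replicate 2), LOC4352823 (-1.94 without ZH 4D-2DC replicate 1), LOC4343208 (-2.04 without ZH 10D-2DC replicate 1), LOC4345148 (-2.26 without ZH 4D-2DC replicate 1 or ZH 10D-2DC replicate 2) and LOC4332640 (-2.25 without ZH 4D-2DC replicate 2).

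Members with no gene took part to a similar degree in this comparison. At the threshold 33 of the 53 members with no gene and 59 of the 91 with a gene were lower in ZH 10D-2DC than in ZH 4D-2DC seed. Against HF 4D-2DC seed the 2 kinds differed more, with 22 of the 53 and 58 of the 91 lower, where 1.15% of all probe sets were. The strongest call belonged to the unannotated Os.23262.1.A1_s_at, named here after its values were seen. It had 2798 and 3886 in HF 4D-2DC seed and 4947 and 7707 in HF 4D seed, and 10.6 and 18.2 in ZH 10D-2DC seed and 1273 and 3692 in ZH 4D-2DC seed. Untreated ZH seed had 2415 and 6467 at 4 DAF, 1036 and 2354 at 6 DAF, 21.1 and 38.8 at 10 DAF and 136 and 3.52 at 12 DAF. The late arrays had at most 136, and the differences were -6.18 ± 0.84 against ZH 4D-2DC and -6.78 ± 0.84 against HF 4D-2DC seed (SE, adjusted p 0.351 and 0.0857, limma). Next came Os.10246.5.S1_at with 7338 and 5889.5 in HF 4D-2DC seed and 11458 and 8399 in HF 4D seed, and 221 and 227 in ZH 10D-2DC seed and 6837 and 3106 in ZH 4D-2DC seed. Its design cluster has 4 members, of which Os.10246.2.S1_at is paired with LOC4338913. Over these 4 members the signals ran from 102 to 608 in ZH 10D-2DC seed, against 1864 to 6837 in ZH 4D-2DC seed. ZH 10D had 789 to 2967 and ZH 12D 408 to 1282.

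A few members left the pattern in late cold-treated seed, and they were picked by their values. LOC4339629 had 536 and 582 in ZH 10D-2DC seed, against 121 and 307 in ZH 12D and 118 and 307 in ZH 10D seed. It and OsAffx.7154.1.S1_at were the 2 members with both ZH 10D-2DC arrays above the middle of the gap. Over all members ZH 10D-2DC minus ZH 12D had a median of 0.18, with 26 members over 2-fold higher and 13 over 2-fold lower, where 13.7% and 9.28% of all probe sets were. These are descriptions, since ZH 12D was among the arrays that chose the members.

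In early seed the values after cold lay near those of untreated seed of the same age. ZH 4D-2DC minus ZH 6D had a median of -0.04, with 0.06 in replicate 1 and -0.17 in replicate 2, and 9 members were over 2-fold lower and 3 over 2-fold higher, where 8.23% and 9.0% of all probe sets were. Against ZH 4D, taken 2 days earlier, the median was -0.45 in ZH 4D-2DC seed, and ZH 6D minus ZH 4D had -0.37. Both ZH 4D-2DC arrays lay below the middle of the gap in Os.10246.4.S1_x_at and in the unannotated Os.47290.1.S1_at, which had 34.1 and 72.6 in ZH 4D-2DC seed, against 210.3 and 239 in ZH 6D seed. It was low in early cold-treated seed of both cultivars, since HF 4D-2DC had 112 and 37.3, against 459 and 168 in HF 4D seed. Both probe sets were singled out after their values were seen.

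HF seed after cold was next set against HF seed at the start of the cold. In HF 4D-2DC against HF 4D seed 5 members were lower and 0 higher, where 1.23% and 0.269% of all probe sets were. The median difference was -0.50, against -0.23 over all probe sets. Within replicate 1 it was -0.30, against -0.47 over all, and within replicate 2 -0.38, against 0.0088 over all, so that the members lay below all probe sets in replicate 2 and above them in replicate 1. With median centring of the arrays it was -0.0502, against 0.22 over all. With the replicate number as a block 10 members were lower, where 3.65% of all probe sets were. Both HF 4D-2DC arrays lay below both HF 4D arrays in 36 members, where 15% of all probe sets did, and by at least 1 in 2 members, where 1.37% did. They lay above in 5 members, where 9.46% of all did. The 5 members were LOC4343713, LOC4323973, OsAffx.11299.1.S1_s_at, OsAffx.32268.1.A1_x_at and OsAffx.29654.1.S1_at, with differences from -3.83 to -2.12. None of these 5 calls held with each array left out in turn. The median difference of the members was -0.18 without HF 4D replicate 1, the array with the high flower markers. Without HF 4D replicate 2 it was -0.60. The part of HF 4D replicate 1 in these values was not tested further.

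LOC4343713 shows how single arrays bear on these counts. It had 634 and 4869 in HF 4D-2DC seed, against 160603 and 3991 in HF 4D seed. The HF 4D arrays lay far apart, and the difference of -3.83 ± 1.60 (SE) was -1.17 without the first of them. In ZH seed its signals were 6468 and 20684 at 4 DAF, 689.6 and 594 at 6 DAF, 28.5 and 31.1 at 10 DAF and 81.4 and 26.0 at 12 DAF without cold, and 509 and 58.2 in ZH 10D-2DC seed and 7118 and 5626 in ZH 4D-2DC seed. LOC4323973, which shares the design cluster OsAffx.11299 with another of the 5, had 1149.7 and 777 in HF 4D-2DC seed, against 27060.5 and 2297 in HF 4D seed. Both HF 4D arrays were higher, the first of them by far, and the difference of -3.04 ± 1.20 (SE) was -1.27 without it. Without cold it had 8970.1 and 11460.3 at 4 DAF, 5692 and 794 at 6 DAF, 156 and 19.9 at 10 DAF and 301 and 3.91 at 12 DAF in ZH seed, and its signals were 31.5 and 20.2 in ZH 10D-2DC seed and 2327 and 365 in ZH 4D-2DC seed.

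The 2-day differences of the cultivars were also set side by side, as a description, since ZH 6D and ZH 4D were among the arrays that chose the members. HF 4D-2DC minus HF 4D and ZH 6D minus ZH 4D had a Pearson r of 0.457 and a Spearman rho of 0.350 across members, against a Pearson r of 0.199 across all probe sets. Members are not independent, and both differences rest on pairs of the same replicate numbers. In the 29 members at least 2-fold lower in ZH 6D than in ZH 4D seed, HF 4D-2DC minus HF 4D had a median of -1.09, and 15 (51.7%) were at least 2-fold lower. In the other 115 members the median was -0.31, and 17 (14.8%) were. Over all 144 members 32 (22.2%) were, and over all probe sets 18.9%. Split in the same way, all probe sets gave 29.7% where ZH 6D was at least 2-fold below ZH 4D and 17.5% elsewhere, with medians of -0.52 and -0.20. CYCB2-2 was among the 29, with a difference of -1.09 ± 0.88 in HF seed (SE). MCM4 was at 0.56 ± 0.80, RPA32A at 0.41 ± 0.83 and PCNA at -0.77 ± 0.80 (SE), and none of these genes passed the threshold.

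**Figure D5:**
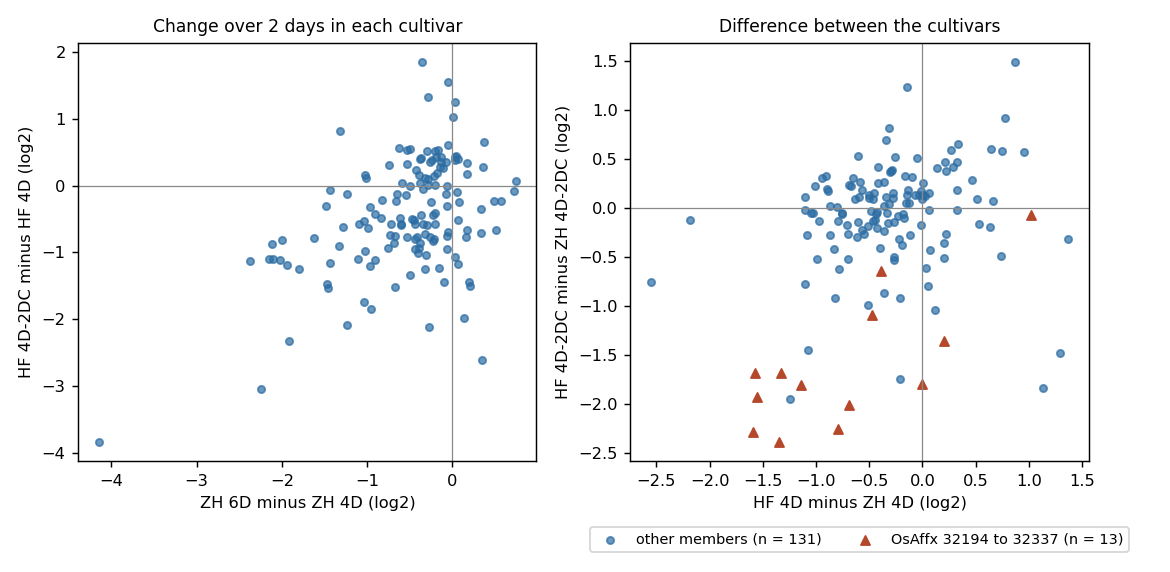
Each point is 1 of the 144 members. The left panel sets HF 4D-2DC minus HF 4D against ZH 6D minus ZH 4D (r = 0.457), with LOC4343713 at the lower left, and the right panel sets HF 4D-2DC minus ZH 4D-2DC against HF 4D minus ZH 4D, both in log2 units. Triangles are the 13 members with design numbers 32194 to 32337, which lie at -0.07 to -2.38 on the vertical axis.

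Cold-treated early seed of the cultivars differed in few members. In HF 4D-2DC against ZH 4D-2DC seed 5 members were lower and 0 higher, where 0.58% and 0.227% of all probe sets were, and 9 were lower with the replicate number as a block, where 1.81% of all were. The median difference was -0.05, against -0.11 over all probe sets, with quartiles of -0.38 and 0.19. It was 0.20 with median centring, against 0.14 over all, and 0.0079 with quantile normalization, as over all. Both HF 4D-2DC arrays lay below both ZH 4D-2DC arrays in 14 members, where 13.5% of all probe sets did, and by at least 1 in 6, where 1.28% did. They lay above in 3 members, where 8.08% of all did. None of the 12 named probe sets passed, and their differences ran from -0.99 to 0.27. For PCNA it was -0.06 ± 0.80, for MCM4 -0.05 ± 0.80, for RPA32A 0.27 ± 0.83 and for CYCB2-2 -0.05 ± 0.88 (SE, 2 arrays each). With standard errors of this size such values leave room for differences of over 2-fold in either direction. No member was lower without ZH 4D-2DC replicate 2, 1 was without HF 4D-2DC replicate 1 and 2 were without ZH 4D-2DC replicate 1, and none of the 5 passed with each array left out in turn.

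Of these 5 members, 4 came from a run of unannotated probe sets with design numbers OsAffx.32194 to OsAffx.32337, and this run was singled out after its values were seen. OsAffx.32194.1.A1_at had 398 and 323 in HF 4D-2DC seed, against 1755 and 2144 in ZH 4D-2DC seed, a difference of -2.38 ± 0.87 (SE). OsAffx.32337.1.A1_at had 280.0 and 1226 in HF 4D-2DC seed, against 3242 and 2544 in ZH 4D-2DC seed. In both probe sets the HF 4D-2DC arrays lay below the ZH 4D-2DC arrays and above the ZH 10D-2DC arrays, which had 66.6 and 175 for the first and 236 and 275 for the second. The 13 members of the run had a median difference of -1.79, with -2.35 within replicate 1 and -1.32 within replicate 2, and 10 were lower in both. So were 118 of the 230 probe sets of the whole run and 30.1% of all probe sets. The other 131 members had a median of 0.01. Without cold the 13 members had a median of -0.79 in HF 4D minus ZH 4D, and the other 131 -0.31. The run holds 230 probe sets on the array, and its 217 probe sets that were not members had a median of -0.59 in HF 4D-2DC minus ZH 4D-2DC. In HF 4D minus ZH 4D these 217 had a median of 0.21, with 0.73 within replicate 1 and -0.33 within replicate 2. The fifth called member was OsAffx.23930.1.S1_at, with 36.5 and 20.4 in HF 4D-2DC seed, against 173 and 97.4 in ZH 4D-2DC seed.

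Late ZH seed was also set against early HF seed, both after cold, so that cultivar and stage differ together. In ZH 10D-2DC against HF 4D-2DC seed 80 of the 144 members (55.6%) were lower and 0 higher, where 1.15% and 3.18% of all probe sets were. The median was -2.26, against 0.25 over all probe sets, and -2.59 and -1.72 within the replicates, against 0.42 and 0.06 over all. Both ZH 10D-2DC arrays lay below both HF 4D-2DC arrays in 122 members, where 12.1% of all probe sets did, by at least 1 in 78, where 1.61% did, and above in none, where 20.8% did. No limma adjusted p was below 0.05, the lowest being 0.0857, and with the replicate number as a block 3 members passed, where 0.0525% of all probe sets did. Leaving out HF 4D-2DC replicate 1 gave 42 lower members, and 29 members passed with each array left out in turn. RPA32A, at -3.80 ± 0.83, and MCM4, at -2.89 ± 0.80 (SE), were among these 29. This comparison shares its arrays with the others, and 72 members were lower in ZH 10D-2DC seed than in both early cold-treated conditions, where 0.661% of all probe sets were.

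Taking the arrays that did not choose the members as a whole, all 6 early arrays, of HF 4D-2DC, HF 4D and ZH 4D-2DC seed, lay above both ZH 10D-2DC arrays in 114 of the 144 members, which 4.78% of all probe sets showed. The distance was at least 1 in 60 members, which 0.518% of all showed. The 4 embryo marker genes did not move together. The dehydrin RAB21 had 159590 and 41885 on the ZH 10D-2DC arrays, against 2048.5 and 2709.8 on the ZH 4D-2DC arrays, and VP1, a transcription factor of seed maturation, had 3514.5 and 4206.5, against 1277.4 and 1203. ROC1, a homeobox gene of the outer cell layer, was lower within each replicate, with 414 and 1299.7, against 750.15 and 1955.8. OSH1, a homeobox gene of the shoot meristem, had 322 and 394, against 384 and 405, with one probe set and 231 and 431, against 112 and 296, with the other. The summed signal of the 4 genes, 47785 to 163840 on the ZH 10D-2DC arrays, against 4460 to 6273 on the ZH 4D-2DC arrays, therefore rested on RAB21. Summed over 5 genes of green or maternal layers, the ZH 10D-2DC arrays had 2243 and 26090, against 10308 and 32516 for ZH 4D-2DC. The 6 starchy endosperm genes summed to 848460 and 177490, against 281300 and 106770. The 6 genes of other flower parts summed to 7062 and 24366, against 5669.9 and 36103. None of the marker probe sets used here was a member, and the part of tissue composition in the members' levels was not tested.

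Beyond replication and the cell cycle, the lists of other functions held 0 of the 144 members. They included 39 probe sets of MADS-box factors, 73 of auxin genes, 86 of MYB, bHLH, AP2/ERF, NAC, WRKY and bZIP factors, 65 of cell wall and expansion genes, 38 of heat shock proteins and 7 of storage proteins. Since the members were 0.252% of all probe sets, a list of this size would at that share hold about none, and nothing is read from the count. These lists rest on gene symbols, which most members lack, and OsTF1 was not caught by the list of homeobox factors for this reason.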

How the data were processed

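The deposited values were the authors' MAS5 intensity signals on a linear scale, 1 column per array, scaled so that every array had a 2% trimmed mean of 500. The methods describe GC-RMA values, which were not used here. Signals were taken as log2(signal + 16) after removal of 187 control probe sets, and no filter on dim probe sets was applied. The members and the gene lists were chosen with earlier results of these data known, and the DNA replication list was widened after the gene names had been seen. Differences were fitted with limma 3.58.1 in R 4.3.3 on the 8 arrays that did not choose the members, over all 57194 probe sets, and the fit was tested on simulated data. Calls needed an unadjusted p below 0.05 and a change of over 2-fold. Adjusted p-values follow Benjamini-Hochberg. The named probe sets were all members with a gene name and those of the 10 genes with the largest gaps and only a locus number. Each of these 10 genes was taken by its probe set with the largest gap. The platform annotation paired 22436 probe sets with 1 gene, and names came from the RefSeq gene table of assembly ASM3414082v1. No sequences were used. Differences between replicate 1 and replicate 2 correlated between all 28 pairs of conditions, with Pearson r from 0.216 to 0.639 across probe sets (median 0.416), so that replicate numbers pair the arrays, and fits with the replicate number as a block were made besides. Each array was left out in turn, and other pseudocounts, scalings and filters were tried.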

Additional observations from a re-analysis of the deposited data

How the results depend on the processing

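In ZH 10D-2DC against ZH 4D-2DC seed and against HF 4D-2DC seed, the members stayed lower under all alternatives run, with 70 to 114 and 66 to 106 members lower where all arrays were kept. Leaving out 1 array gave 54 to 96 lower members against ZH 4D-2DC and 42 to 85 against HF 4D-2DC, with medians of -2.65 to -2.21 and -2.46 to -1.99. At an adjusted p below 0.05, an eBayes trend gave 6 members against ZH 4D-2DC and 14 against HF 4D-2DC, and for HF 4D-2DC the fit over all 16 arrays gave 3, as did the replicate block. The fit over all 16 arrays takes part of its spread from the arrays that chose the members. That spread is too small for the members, so nothing is read from the calls of this fit. The counts of this section have no share of all probe sets beside them. They show only how the calls of members shift with the processing. In HF 4D-2DC against ZH 4D-2DC seed, 2 members were lower with a pseudocount of 1, 1 with median centring, 9 with the replicate block, and 8 with the block after quantile normalization, which also made 1 higher. The median there turned to 0.0079 with quantile normalization, with or without the block, and to 0.20 with median centring. Leaving out 1 array gave 0 to 7 lower members, 0 to 1 higher and medians from -0.39 to 0.27, positive also without ZH 4D-2DC replicate 1 (0.18). In HF 4D-2DC against HF 4D seed, 2 members were lower with a pseudocount of 1, 10 with the replicate block and 8 in the fit over all 16 arrays. Quantile normalization, with or without the block, made 1 higher with a median of -0.41, and median centring gave a median of -0.0502. Leaving out 1 array gave 0 to 13 lower members, 0 to 2 higher and medians from -0.60 to -0.18. The cause of these shifts was not tested. Of 542 values for 32 gene results under alternatives, 446 kept their direction and side of the threshold, 70 no longer passed, 26 newly passed and 0 changed sign. The set itself held 119 probe sets with a pseudocount of 64, 167 with 1, 151 after quantile normalization (117 of the 144) and 160 after median centring (81 of the 144). With 2 arrays per condition the precision is limited, and dim members at 10 and 12 DAF lie near the pseudocount, where differences are understated.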
